A study of Xenopus laevis with 9 samples.

Results

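The transcriptome of neural plate border (NPB) explants of Xenopus laevis was described from 3 RNA-seq libraries, all of wild-type genotype and collected at stage 11.5, during gastrulation. They were 3 of the 9 libraries of the series, chosen by their labels (stage, cell type and replicate number) and not by any measured value. The explants were animal pole cells, the pluripotent ectoderm of the blastula, and the labels give their treatment as Wnt8a and Chordin mRNA, a Wnt ligand and a secreted BMP antagonist. Since every library carried that treatment and all of them formed 1 group, there is no control within the group, and the values are levels inside this state. The libraries were described by the study as biological replicates, and each was made from explants rather than from border tissue dissected out of an embryo.

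In the vertebrate gastrula the neural plate border is the strip of ectoderm between the future neural plate and the future epidermis. It forms where Wnt, FGF and intermediate BMP signals meet, and its cells later give rise to neural crest, cranial placodes, dorsal neural tube and epidermis. Transcription factors of the Pax3/7, Zic, Msx, Dlx and Tfap2 families are known as border specifiers, and they act before neural crest specifiers such as Snai2, Foxd3 and Sox10 are turned on. Xenopus laevis is an allotetraploid, so that most genes are present as an L and an S homeolog, and a locus below is a single L or S row of the table.

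Levels are given as TPM, transcripts per 1000000 transcripts, which divide the reads of a locus by its length and by the total of the library, so that loci can be compared within a library. Of 51061 gene rows, 16548 were at 1 TPM or more in all 3 libraries, which is the measure of an expressed locus used below. This is 32.4% of the rows, the share to set beside each count of expressed loci below. A further 13346 rows were listed at 0 TPM in every library. The count tables held 36887771, 29964824 and 48839143 reads for replicates 1, 2 and 3, and 3 counts, taken as a floor, corresponded to 0.0813, 0.10 and 0.0614 CPM, counts relative to a library total of 1000000. The libraries were not equally alike. Replicates 2 and 3 correlated at a Pearson's r of 0.96 on log2(TPM + 1) over 8932 loci with a mean of 10 TPM or more, and replicate 1 correlated at 0.92 and 0.91 with replicates 2 and 3 (across genes, which are not independent replicates). Replicate 1 therefore stood apart, and values are given per library below.

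Apart from the injected genes, border genes were the most completely expressed of all the gene lists examined. Of 44 loci carrying the names of 21 border genes, 39 were at 1 TPM or more in every library (88.6%, against 32.4% of all rows), and this count was 39 without replicate 1. Among the lists of other ectodermal states, pluripotency genes passed in 29 of 38 loci, neural plate genes in 32 of 50, epidermal genes in 16 of 33, placode genes in 12 of 30 and neural crest genes in 6 of 26. Rows were found for 16 of the 20 epidermal names. The keratin loci krt8.1.L, krt8.1.S, krt18.1.L and krt18.1.S were not counted in that list. They were expressed, with means of 249, 173, 221 and 70.2 TPM. Markers of mesoderm and endoderm passed in 5 of 68 loci and markers of later or unrelated cell types, such as muscle, blood, liver and germ cells, in 4 of 38. Most border markers were thus expressed, with neural plate and pluripotency genes present beside them. Lists that do not define the border also had high shares. These were 5 of 6 SoxB1 loci, 26 of 34 planar polarity and motility loci and 19 of 25 reference loci. A neural progenitor list drawn up later had 13 of 15. The lists were chosen with earlier results of these data known, so the border share is not an independent check of the label.

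**Figure D1:**
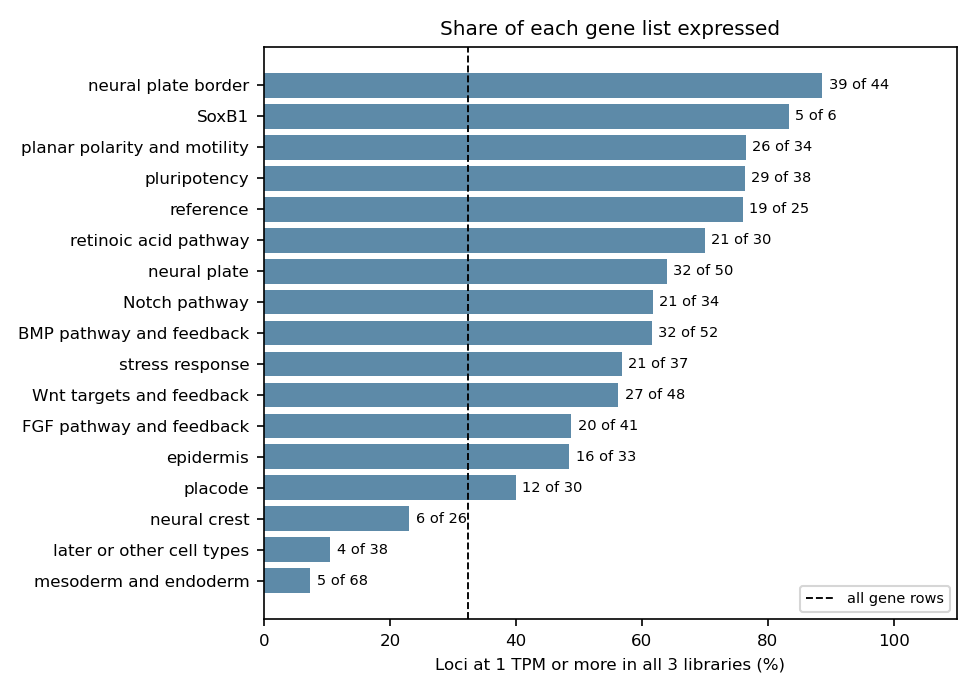
Share of the loci of each gene list (percent, horizontal axis) that were at 1 TPM or more in all 3 NPB libraries, with the number of loci written beside each bar and the share over all gene rows (32.4%) as a dashed line. The neural plate border list is at 88.6%, and the mesoderm and endoderm list is at 7.35%.

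Among the border specifiers, the zic genes, zinc finger factors of the neural and border ectoderm, were led by zic1. zic1.S was at 384, 444 and 466 TPM in replicates 1, 2 and 3, and zic1.L at 101, 230 and 195 TPM. zic1.L was lowest in replicate 1. zic2.S was at 40.7, 57.6 and 45.3 TPM and zic2.L at 31.8, 25.6 and 25.5 TPM. zic5 was close to the limit, with zic5.L between 1.04 and 3.98 TPM and zic5.S below 1 TPM in all 3 libraries.

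pax3, the paired-box gene by which the forming border is usually recognised, was present from both homeologs. pax3.L was at 232, 129 and 104 TPM and pax3.S at 209, 78.8 and 64.7 TPM in replicates 1, 2 and 3. Summed over L and S as the study displays TPM, pax3 was at 273 ± 147 TPM (SD, n = 3). Its paralog pax7 was near absent, since pax7.L was between 0.03 and 0.12 TPM and pax7.S did not exceed 0.02 TPM.

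The AP-2 and distal-less factors, known from the lateral, non-neural side of the border, were highest in replicate 1. tfap2a.L, shared by border and epidermis, was at 218, 39.0 and 60.3 TPM, and tfap2a.S at 200, 43.0 and 109 TPM. tfap2c.S was at 96.8, 19.2 and 22.0 TPM and tfap2c.L at 49.5, 10.7 and 22.5 TPM. In each of these 4 loci the value of replicate 1 was above those of both other libraries. The distal-less homeobox genes were likewise highest in replicate 1. dlx5.L was at 80.9, 23.3 and 19.8 TPM and dlx6.S at 96.3, 14.9 and 24.2 TPM. dlx5.S, dlx6.L, dlx3.L and dlx3.S were lower, with means of 23.2, 13.8, 21.9 and 12.2 TPM, and each had its highest value in replicate 1.

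msx1, a homeobox target of BMP signalling, was at 127, 29.4 and 63.8 TPM from L and at 33.4, 9.73 and 24.3 TPM from S. Replicate 2 was lowest in both. msx2.S was highest in replicate 3 at 24.2 TPM against 7.51 and 7.08 TPM in replicates 1 and 2, whereas msx2.L was highest in replicate 1 at 7.53 TPM and below 1 TPM in replicate 2. klf17.L, a Krüppel-like factor of the border and surface ectoderm, was at 156, 32.2 and 42.2 TPM. A row named klf17.1.S, which the border list does not include, was at 236, 28.0 and 81.1 TPM. prdm1.S, which encodes the zinc finger repressor Blimp1, was at 113, 48.0 and 64.4 TPM, and prdm1.L was at 57.9, 9.79 and 14.3 TPM.

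The remaining members included the highest of the list. id3, an inhibitor of bHLH factors and a known BMP and Myc target, was at 679, 300 and 451 TPM from id3.L and at 536, 254 and 430 TPM from id3.S. hes4.L, a Hes-family repressor, was at 134, 48.2 and 64.8 TPM, and 2 rows named hes4.S had means of 67.7 and 42.9 TPM. myc.L was at 16.5, 27.8 and 19.3 TPM and myc.S at 25.6, 6.78 and 6.33 TPM, so that the homeologs differed in which library was highest. gbx2, a homeobox factor of the posterior border, was lowest in replicate 1, where the lateral genes were highest. gbx2.1.L was at 33.6, 53.7 and 85.8 TPM and gbx2.1.S at 10.8, 26.2 and 40.1 TPM. gbx2.2.L and gbx2.2.S had means of 37.5 and 7.93 TPM and were also highest in replicate 3. znf703.L and znf703.S were low, with means of 5.29 and 5.6 TPM, and csrnp1.L and csrnp1.S had means of 2.79 and 1.1 TPM.

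**Figure D2:**
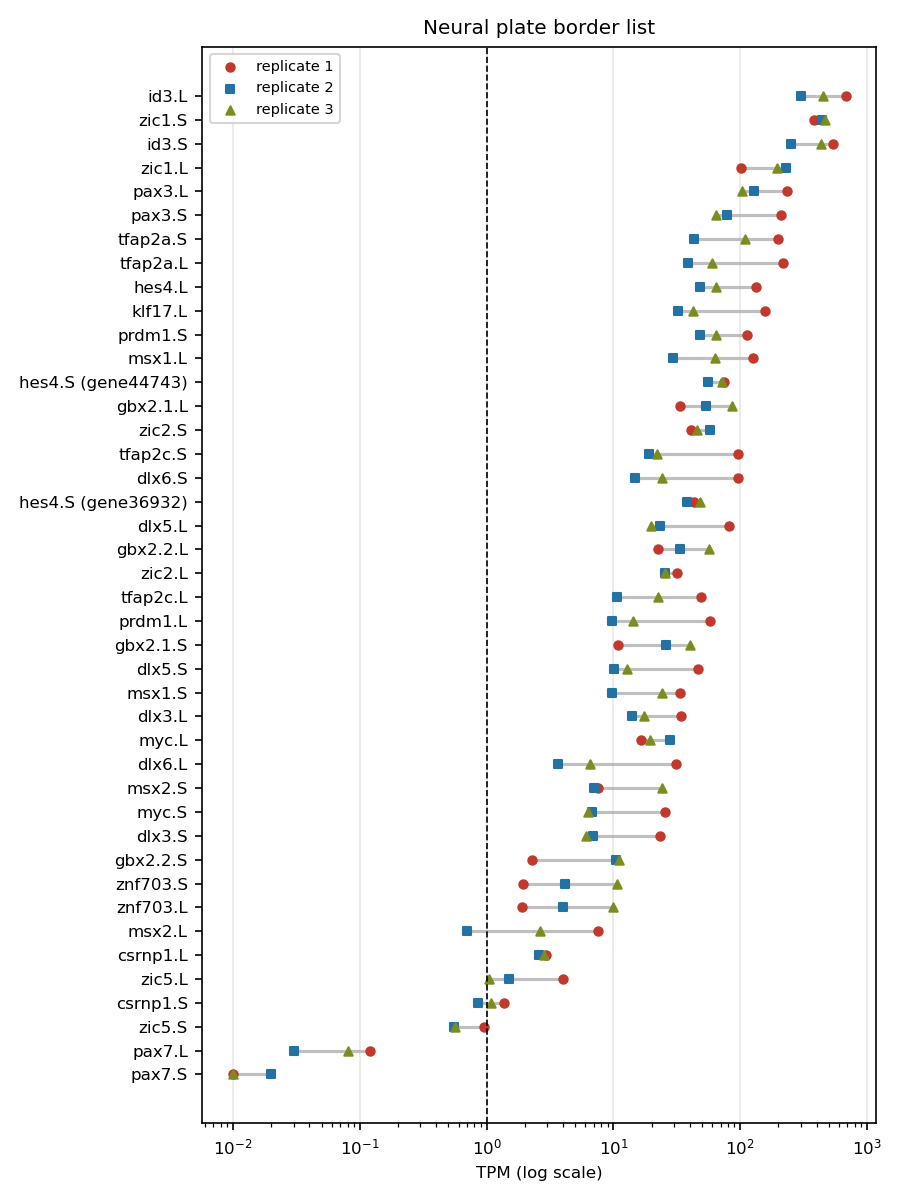
TPM of 42 of the 44 loci of the neural plate border list (log scale, horizontal axis) in the 3 NPB libraries, ordered by mean, with the grey line joining the lowest and highest library and a dashed line at 1 TPM. The zic2.L points lie between 25.5 and 31.8 TPM, whereas tfap2a.L is at 218 TPM in replicate 1 and at 39.0 TPM in replicate 2, and the pax7 loci lie below the other members.

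The border list was also uneven between libraries. Of its 34 loci with a mean of 10 TPM or more, 26 had at least a 2-fold difference between the highest and the lowest library on TPM + 1, beside 14.9% of all 8932 loci at that level. Replicate 1 was the highest library for 23 of the 34, and replicate 2 the lowest for 20. The same shares over all loci were not counted. Without replicate 1 the count was 5 of 32 loci, beside 323 of 9075 loci overall (3.56%). No test was made of the share in this list, as replicates of a single group have no contrast.

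Neural crest genes were mostly below 1 TPM, with a median of 0.49 TPM over the 26 loci. sox10, which marks specified crest, was listed at 0 TPM for both homeologs in all 3 libraries, with 2 counts of sox10.L in replicate 1 and no others, which is under the floor of 3 counts. foxd3, in 3 rows, was between 0 and 0.79 TPM. snai2.L was at 2.44, 0.16 and 0.53 TPM and snai2.S did not exceed 0.41 TPM. The exceptions were snai1.L at 37.6, 16.4 and 16.3 TPM and snai1.S at 22.3, 13.8 and 23.1 TPM, which encode a zinc finger repressor also active in early mesoderm and border ectoderm. sox9.S and sox9.L had means of 5.21 and 3.97 TPM, tfap2e.S of 2.04 TPM and tfap2b.S of 1.36 TPM. sox5.L and tfap2e.L were below 0.1 TPM on average.

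Placode genes were divided in the same way. irx1.L, an Iroquois homeobox gene of the neural and preplacodal ectoderm, was the highest at 143, 125 and 111 TPM. six4.L was at 14.9, 11.1 and 14.7 TPM and foxi4.2.S at 15.9, 12.95 and 11.95 TPM. eya1.L, a transcriptional cofactor of the placodes, was at 24.1, 3.46 and 3.50 TPM, highest in replicate 1, and foxi1.L, a forkhead gene of ionocytes and epidermis, was at 0.26, 2.30 and 19.1 TPM, highest in replicate 3. pitx1.L, pax8.S and dlx4.L had means below 0.1 TPM. dlx4.S was listed at 0 in all 3 libraries.

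Of 6 SoxB1 loci 5 were expressed. SoxB1 factors maintain neural and pluripotent progenitors. The table held 2 rows named sox2.L and none named sox2.S, at 122, 240 and 230 TPM (gene45195) and at 60.4, 124 and 118 TPM (gene41682). sox3.S was at 78.5, 234 and 245 TPM and sox3.L at 19.5, 74.6 and 81.2 TPM. Replicate 1 was the lowest library for all 4 of these rows and replicates 2 and 3 were close to each other. sox1 was low, with sox1.L between 1.12 and 2.15 TPM and sox1.S at or below 0.46 TPM. The summed level of SoxB1 was 282, 675 and 676 TPM.

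The highest gene of the neural plate list was gmnn.S, which encodes the replication and differentiation regulator Geminin, at 967, 1096 and 1131 TPM. irx2.L was at 260, 230 and 211 TPM and sox11.L at 133, 194 and 191 TPM. otx2.S, a homeobox gene of the anterior neural plate, was at 151, 108 and 60.3 TPM. Genes of differentiating neurons were divided, and several were low or absent. neurog2.S was at 7.19, 8.71 and 13.7 TPM, and neurod1.L and neurod1.S were listed at 0. neurog3.L and, among other loci of the list, lhx2.L and hes5.2.S had means below 0.1 TPM, whereas hes5.2.L was at 0.77, 9.33 and 7.68 TPM. What carries the name nrp1 here was also below 0.1 TPM. Whether that name stands for the neural marker that the paper calls nrp1 was not tested. elavl3.L, which encodes an RNA-binding protein of neurons, was nevertheless at 24.7, 36.0 and 36.8 TPM. The tubulin gene tubb2b.L was at 43.8, 14.4 and 10.9 TPM, highest in replicate 1, while tubb2b.S had a mean of 0.54 TPM.

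Of 38 loci of pluripotency factors 29 were expressed, and the median over the list was 8.12 TPM. pou5f3.1 and pou5f3.2 are POU factors of the Oct4 family that hold blastula cells in an uncommitted state. pou5f3.1.L was at 279, 346 and 358 TPM and pou5f3.1.S at 104, 209 and 214 TPM. pou5f3.2.L was at 104, 586 and 480 TPM, lowest in replicate 1, and pou5f3.2.S at 31.6, 129 and 128 TPM. pou5f3.3.S, another paralog, was at 4.08, 7.16 and 20.8 TPM. ventx2.2.S, a Nanog-like homeobox factor of Xenopus that responds to BMP, was at 202, 152 and 211 TPM, and lin28a.S, an RNA-binding protein that blocks let-7 processing, was at 120, 139 and 189 TPM. klf4.L, klf4.S, mycn.L and mycn.S were all below 0.5 TPM, and ventx3.2.L had a mean of 0.01 TPM.

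Epidermal genes covered a wide range of levels. Genes of the general surface ectoderm were among the most abundant in the table, including krt70.S, a keratin, at 1698, 1640 and 1306 TPM, epcam.S, an epithelial adhesion molecule, at 1232, 1336 and 1367 TPM, and cdh1.S, which encodes E-cadherin, at 245, 269 and 164 TPM. Among factors of committed epidermis, gata2, gata3 and tp63 were low. gata2.L was at 9.21, 1.2 and 0.74 TPM, gata3 stayed below 1 TPM, and tp63, the master factor of stratified epithelium, reached no more than 0.79 TPM. grhl1.L and grhl3.S, Grainyhead-like factors of surface ectoderm, were at 39.4, 16.1 and 16.2 TPM and at 42.5, 32.3 and 20.8 TPM. Not all epidermal markers were low. trim29.L and krt12.4.L, named as epidermal genes in the paper, were at 64.6, 36.6 and 34.7 TPM and at 46.0, 42.5 and 27.65 TPM. Their S homeologs had means of 21.4 and 14.8 TPM. cdh1.L had a mean of 0.0933 TPM and krt5.2.L was listed at 0.

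Mesoderm and endoderm genes were low, with 29 of 68 loci below 0.1 TPM on average. nodal, nodal1.L, shh.L, msgn1.L and tbx6.S were listed at 0 TPM in all 3 libraries, and myod1, mespa, mespb, mix1, foxa1.L, hhex.L and sox17a.L did not exceed 0.17 TPM. The highest was cer1.S, a secreted antagonist of Nodal, BMP and Wnt, at 74.8, 2.48 and 21.7 TPM. Other members with a value above 10 TPM were highest in replicate 3. tbxt.S (brachyury) was at 0.28, 0.45 and 10.8 TPM, not.L at 1.54, 6.67 and 13.6 TPM, and a row of nodal3.1.L at 0.21, 7.44 and 24.97 TPM. gata4.S passed 1 TPM in every library with no more than 3 counts in any. The summed level of the whole list was 101, 45.1 and 134 TPM in replicates 1, 2 and 3.

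Of later or unrelated types, alb.L and alb.S (liver), mpo.L (granulocytes), ins.S (pancreas) and a ttn row (LOC108701393, muscle) were listed at 0 TPM. The list's highest member was a row annotated provisionally as ins (XB5961731.L) at 104, 117 and 180 TPM, followed by hbg1.L, named as a globin, at 52.0, 95.6 and 49.9 TPM. foxj1.L, the master factor of motile cilia, was at 0.13, 2.34 and 2.26 TPM.

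Names matching a set of transcription factor families covered 1174 loci, of which 390 were expressed (33.2%, beside 32.4% of all rows) and 46 had a mean of 100 TPM or more. The most abundant was smad4.1.S, the common mediator of BMP and Nodal signalling, at 978, 1457 and 940 TPM, which placed it at rank 98 of all rows. sox15.L, a SoxG factor, was second at 698, 700 and 787 TPM. sp5l.L, a direct Wnt target, was at 277, 520 and 686 TPM, and after id3.L came zic1.S at rank 300 of all rows. id3.S, pou5f3.2.L and pou5f3.1.L were next among these names, the POU loci at ranks 350 and 441. The family names do not cover every transcription factor, and crx.L, which they leave out, had a mean of 404 TPM.

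Further down the same order were the insulator protein gene ctcf.L at 252, 236 and 254 TPM and the retinoic acid receptors rarg.S at 253, 221 and 263 TPM and rarg.L at 221, 176 and 198 TPM. The LIM homeobox name lhx5.S was carried by 3 rows, and the highest of them was at 154, 232 and 213 TPM. pbx2.L, a cofactor of Hox and Meis proteins, was at 223, 145 and 172 TPM, and sp5.L was at 110, 161 and 263 TPM. The even genes of this group, sox15.L, ctcf.L and rarg.S, differed by little between libraries, whereas pou5f3.2.L, sox3.S and sp5l.L spread over more than 2-fold. With L and S summed, the leading names were smad4.1, id3, sox15, sp5l, lhx5 and zic1, and all 17 symbols among the 20 loci stayed among the leading 20.

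Signalling names covered 786 loci. Of these, 224 were expressed (28.5%, beside 32.4% of all rows) and 14 had a mean of 100 TPM or more. The injected chordin led this class, and ctnnb1.S and ctnnb1.L stood between it and the injected wnt8a. Reads of the injected transcripts cannot be told apart from those of the endogenous genes. chrd.1.S, the homeolog of chordin that carried nearly all of its reads, was at 971, 5235 and 1157 TPM, and wnt8a.L was at 322, 618 and 328 TPM. Replicate 2 was therefore the highest for both. wnt8a.S was listed at 71.3, 122.6 and 66.2 TPM but its mean CPM ranked at only 14359, against rank 1967 for its TPM. Together the chordin and wnt8a rows took 0.137%, 0.598% and 0.156% of the TPM of the libraries.

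ctnnb1.S and ctnnb1.L, which encode beta-catenin, were at 850, 936 and 1078 TPM and at 872, 848 and 845 TPM. Of 38 loci of Wnt ligands, only wnt8a.L, wnt8a.S and wnt11b.L, the last at 10.6, 5.15 and 11.8 TPM, were expressed. Receptors were present in 13 of 21 fzd loci, led by fzd7.L at 116, 134 and 120 TPM, and ror2.L, a co-receptor of non-canonical Wnt signalling, was at 75.6, 97.5 and 112 TPM. The feedback gene axin2.S was at 118, 86.8 and 145 TPM and notum.L, a secreted Wnt inhibitor, at 15.7, 35.7 and 30.3 TPM. axin2.L and ror2.S had means of 77.5 and 76.0 TPM. tcf7l1.S, a Tcf repressor, was at 96.9, 117 and 81.0 TPM. lgr5.L, tcf7l2.L and sia1.S, the last a target of maternal Wnt signals in the organizer, were near or at 0.

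BMP components were present on both sides of the pathway. bmp7.2.L was the highest endogenous ligand at 106, 358 and 363 TPM, lowest in replicate 1, and bmp4.L and bmp4.S were even, at 38.5, 47.6 and 45.3 TPM and at 39.6, 44.2 and 48.3 TPM. The receptor bmpr1b.S was at 78.9, 22.8 and 50.5 TPM. id2.L, another Id target, was at 144, 53 and 38.2 TPM. The antagonists noggin and follistatin were low. nog.S was between 1.18 and 1.82 TPM, and fst.L and fst.S had means below 0.1 TPM. bmp7.1.S was listed at 0.

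Outside these pathways, tdgf1.3.L, which encodes a Nodal co-receptor of the EGF-CFC family, was at 149, 221 and 209 TPM. mdk.L, the growth factor midkine, was at 161, 164 and 227 TPM and mdk.S at 173, 70.6 and 119 TPM, so that its homeologs had different library orders.

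Few FGF ligands were expressed. fgf8.S at 4.56, 1.90 and 4.17 TPM and fgf8.L at 1.14, 1.55 and 4.2 TPM were the only 2 of 38 FGF ligand loci expressed. fgfr4.L was at 312, 136 and 154 TPM and fgfr4.S at 191, 95.1 and 108 TPM, so that fgfr4 was the leading receptor and was highest in replicate 1. Of the 10 loci of the FGF list with a mean of 10 TPM or more, 5 were 2-fold uneven, beside 14.9% of all 8932 loci at that level. In 4 of the 5, replicate 1 stood apart as the lower library, as it did in 644 of all 1330 uneven loci. Among these were dusp6.S, a feedback phosphatase, at 4.86, 16.3 and 15.3 TPM and the target etv4.L at 20.3, 41.4 and 47.7 TPM, whereas spred2.L was even at 16.2, 16.6 and 18.0 TPM. fgf4.L (2 rows) was listed at 0, and fgf1, fgf2.S, fgf4.S and fgf9.S had means below 0.1 TPM.

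The retinoic acid list held the receptors rarg.S and rarg.L among its highest loci. crabp2.L, a carrier of retinoic acid, was its highest locus at 342, 161 and 295 TPM, and the degrading enzyme cyp26a1 was at 167, 320 and 244 TPM from S and at 234, 185 and 154 TPM from L. cyp26c1.S, a paralog of anterior ectoderm, was at 98.3, 18.9 and 15.3 TPM. The synthesizing enzyme aldh1a2.S was at 1.84, 4.05 and 2.16 TPM, and cyp26b1 did not exceed 0.02 TPM.

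The leading Notch effector was above the leading Notch ligand. hes7.1.L was the highest at 194, 134 and 99.0 TPM and lfng.S, a glycosyltransferase that modifies Notch, was at 78.3, 86.4 and 96.9 TPM, with lfng.L at a mean of 59.4 TPM. The ligand dll1 was at 21.8, 6.97 and 9.94 TPM from L and at 24.7, 6.41 and 7.31 TPM from S. hey2.L and dll4.L had means below 0.1 TPM. In the planar polarity and motility list 26 of 34 loci were expressed. Of its 17 loci with a mean of 10 TPM or more, 1 was 2-fold uneven (5.88%, beside 14.9% of all 8932 loci at that level). It was prickle1.S, at 1.29, 8.60 and 23.1 TPM. wnt5a.L, wnt11.S and a dvl row (LOC108697641) were below 0.1 TPM or at 0.

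Genes of the stress response differed in their library order. hspa1l.S was the highest at 3778, 2794 and 2658 TPM. ccng1.L, a cyclin gene, was at 64.8, 147 and 261 TPM, highest in replicate 3. jun.L, ddit3.S and hmox1.S were low, the last at or below 0.05 TPM, whereas hmox1.L was at 21.5, 9.94 and 26.55 TPM. The reference list, made of genes commonly used for normalization, had 19 of 25 loci expressed and was led by eef1a1.S at 8041, 6202 and 7134 TPM.

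**Figure D3:**
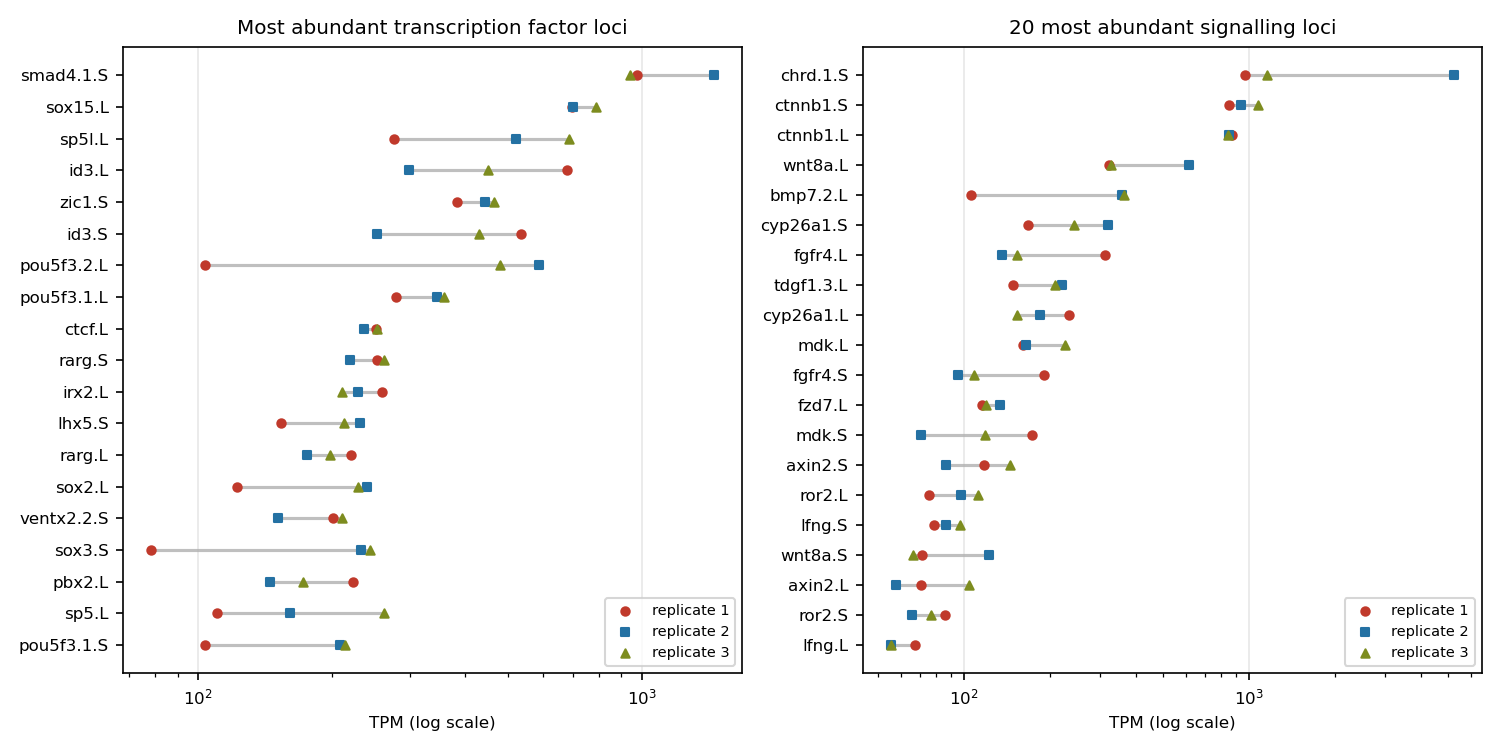
TPM in each of the 3 NPB libraries (log scale, horizontal axis) of 19 of the 20 transcription factor loci and of the 20 signalling loci with the highest mean, with the grey line joining the lowest and the highest library. sox15.L, ctcf.L and ctnnb1.L are tight, while pou5f3.2.L (104 TPM in replicate 1 and 586 TPM in replicate 2) and chrd.1.S (971 and 5235 TPM) are spread.

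The 20 leading rows took 15.7% of all TPM. After a row known only as LOC108710739 came the mitochondrial cox1.L at 13613, 20536 and 14078 TPM and ccdc50.L at 13689, 13135 and 12546 TPM. The elongation factor genes eef1a1o.S, eef1a1.S and eef1a1.L had means of 11184, 7126 and 5683 TPM. Other leading rows were the mitochondrial cox2.L, cox3 and mt-rnr2.L, the cold-inducible RNA-binding protein genes cirbp.L and cirbp.S with means of 7782 and 6887 TPM, and the high mobility group genes hmgb2.L and hmgb3.L. ubb.S (ubiquitin), the splicing factor gene srsf2.L, hnrnpab.S, ptmap12.L, ptmap12.S, a row provisionally named muc5b (LOC108715209) and the RNA-binding ybx1.S completed the 20.

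LOC108710739 was first by TPM at 17804, 25882 and 17400 TPM, but held only 33 counts in replicate 1 and ranked 17370 by CPM. TPM was estimated with RSEM and counts were made with HTSeq, and how each treated reads that match several places was not tested. Of the 20 leading rows, 12 were also among the leading 20 by CPM and 17 among the leading 100. Over all rows, 66 of the 8932 loci with a mean of 10 TPM or more held fewer than 10 counts over the 3 libraries.

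Families differed in how they were shared among libraries. Genes of cytoplasmic ribosomal proteins, 149 of 182 loci expressed, summed to 5.25%, 3.47% and 4.21% of TPM, highest in replicate 1. Rows of the mitochondrial genome summed to 4.53%, 5.91% and 4.49%, highest in replicate 2. Genes named hnrnp took 4.55%, 3.90% and 4.11%, and high mobility group genes 3.01%, 2.91% and 2.80%. Keratins took 0.452%, 0.343% and 0.296%, with krt7.L at 1218, 418 and 290 TPM.

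Spread between libraries was counted over all genes. Of the 8932 loci with a mean of 10 TPM or more, 1330 had at least a 2-fold difference between the highest and the lowest library (14.9%). Replicate 1 was the library farthest from the middle value in 894 of them, where it was lower in 644 and higher in 250. Replicate 1 also had the lowest median TPM of expressed loci, 10.5 against 11.7 and 11.8 in replicates 2 and 3. With TPM scaled by TMM factors 1274 loci were 2-fold uneven. The directions, and other counts of loci highest or lowest in a library, were not recounted with that scaling. With the mean taken over the libraries kept, the count was 323 without replicate 1, 900 without replicate 2 and 804 without replicate 3. The share was higher among transcription factor names, at 95 of 229 loci, and signalling names, at 39 of 112 loci, than among all loci. In the counts, 19714 of 26216 loci with at least 10 counts (75.2%) spread beyond the counting error in a Poisson chi-square test with Benjamini-Hochberg adjusted p under 0.05, a test that compares these libraries and not conditions. Of the 1330, 1294 were among them.

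Several of the 15 loci with the largest spread are known for their position along the head-to-tail axis. dmbx1.L, a homeobox gene of the midbrain, was at 42.3, 0.29 and 0.23 TPM and ag1.S, a secreted protein of the cement gland at the front of the tadpole head, at 187, 3.46 and 10.8 TPM. tspan8.L, a tetraspanin, was at 37.0, 0.06 and 0 TPM. Replicate 1 was the only library of the 3 in which dmbx1.L and tspan8.L reached 1 TPM. In the other direction, cdx1.S, a caudal homeobox gene, was at 1.04, 14.9 and 99.1 TPM and cdx4.L at 0.66, 2.63 and 40.8 TPM, both highest in replicate 3. retn.2.L was at 0.60, 1.19 and 51.4 TPM. foxd4l1.1.L, a forkhead gene of immature neural ectoderm, was at 0.42, 26.1 and 23.3 TPM, lowest in replicate 1.

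The rest of the 15 were LOC108706368, LOC108716035 (provisionally gstt1), LOC108718403, LOC108717646, XB22062458.L, LOC108701509, ephx4.S and LOC108698034. ephx4.S, an epoxide hydrolase gene, was at 18.6, 0.03 and 24.4 TPM, nearly undetected in replicate 2. LOC108706368 had the largest spread, at 150, 14.2 and 1.04 TPM, but held 0 counts in every library, so that its TPM has no support in the count table. LOC108717646, at 0, 19.5 and 33.7 TPM, held 27, 33 and 42 counts. LOC108698034, at 0.96, 48.7 and 19.9 TPM, held 82, 142 and 292 counts. The size of the TPM spread of these 2 loci was thus not matched in the counts either.

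After the values were seen, 4 lists were drawn up around these genes, and they are given as a description only. A shared library order within a list was therefore partly set by the choice of its members. Whether it holds for other genes of the same kind was not tested. In an anterior and cement gland list, all 12 loci with a mean of 10 TPM or more were highest in replicate 1, and 9 were lowest in replicate 3. crx.L, an Otx-family homeobox gene, was at 472, 436 and 305 TPM, otx2.L at 87.2, 56.6 and 29.2 TPM, and ag1.L at 304, 29.3 and 54.8 TPM. cyp26c1.L, at 104, 8.75 and 7.14 TPM, had the same order. In a posterior list, all 14 loci at that level were highest in replicate 3 and lowest in replicate 1. meis3.L, a homeobox cofactor of the hindbrain, was at 57.2, 90.2 and 127 TPM.

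Of 78 hox loci 5 were expressed. hoxd1.S was at 25.7, 45.1 and 120 TPM, hoxd1.L at 30.6, 37.0 and 108 TPM and hoxb1.S at 6.35, 4.11 and 13.6 TPM. Each of these 3 was highest in replicate 3. hoxd10.L, below 1 TPM in replicate 1, was at 0.60, 3.28 and 4.47 TPM.

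In a neural progenitor list, all 13 loci with a mean of 10 TPM or more were lowest in replicate 1. Besides sox2 and sox3 these included hes3.S at 5.14, 42.4 and 44.6 TPM, foxb1.S, a forkhead gene of the posterior neural plate, at 3.67, 43.7 and 42.1 TPM, and hes5.10.L at 7.21, 46.6 and 39.9 TPM. For this list replicates 2 and 3 were close to each other. Without replicate 1, and with the mean of 10 TPM taken over replicates 2 and 3, 1 of 15 loci was 2-fold uneven. For the posterior list the unevenness was also seen between replicates 2 and 3, in 7 of 17 loci chosen by the same mean. Over all loci at that mean, 323 of 9075 (3.56%) were 2-fold uneven between replicates 2 and 3. Both lists were drawn up after the values were seen, so that their counts were partly set by the choice of members. The heat shock list held 11 loci with a mean of 10 TPM or more and had no single order. Of these, 5 were highest in replicate 2, 4 in replicate 1 and 2 in replicate 3. The summed level of the list was 7617, 6101 and 5436 TPM, highest in replicate 1. Within it, the 3 loci named hsp70.L, inducible heat shock genes, were highest in replicate 2, for example at 17.8, 132 and 25.7 TPM. The values of chrd.1.S and wnt8a.L were also highest in replicate 2, and their part in these differences was not tested.

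**Figure D4:**
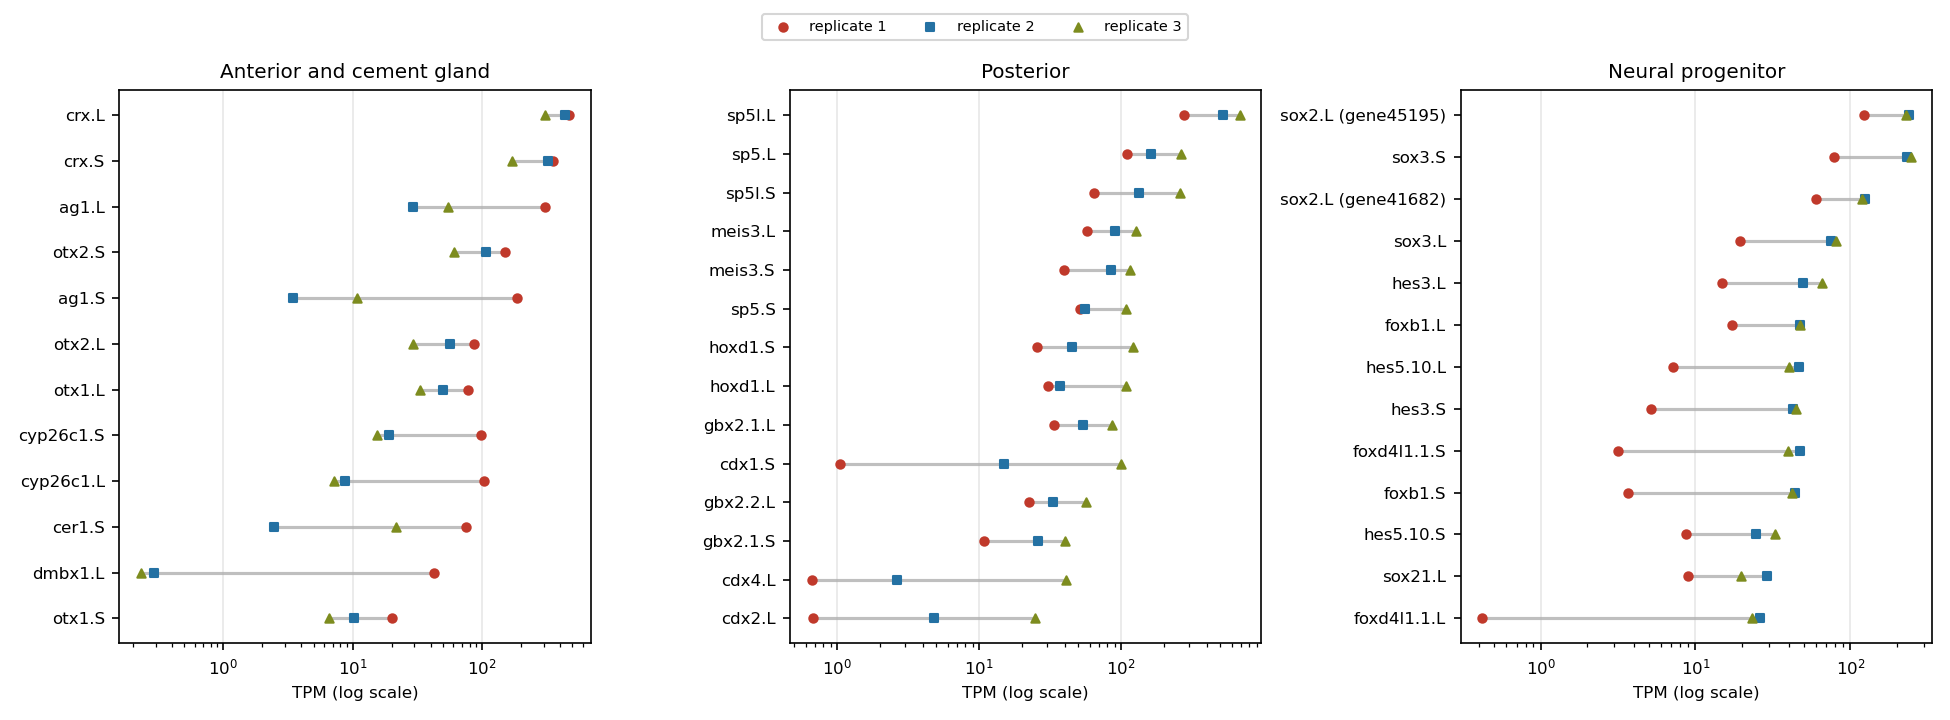
TPM (log scale, horizontal axis) in the 3 NPB libraries of the loci with a mean of 10 TPM or more in an anterior and cement gland list, a posterior list and a neural progenitor list, all drawn up after the values were seen, with the grey line joining the lowest and the highest library. Replicate 1 is at the right in the anterior panel and at the left in the other panels, and cdx1.S runs from 1.04 TPM in replicate 1 to 99.1 TPM in replicate 3.

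L and S homeologs of a gene were compared within each library. Of 8773 pairs with exactly 1 L and 1 S row, 5535 had a summed mean of 2 TPM or more. The homeologs differed in 4186 pairs (75.6%) in limma's moderated test of log2(TPM + 1) of L minus that of S (two-sided, Benjamini-Hochberg adjusted p under 0.05), with L higher in 2331 (42.1%) and S higher in 1855 (33.5%). The difference was 2-fold or more in 3131 pairs, and both homeologs had a mean of 1 TPM or more in 4326. The median difference was 0.19 on the log2(TPM + 1) scale in favour of L. On this scale the difference of low genes is understated.

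Among the named pairs, L was most dominant in bmp7.2, with bmp7.2.L at 276 and bmp7.2.S at 3.16 TPM on average. The difference was 5.92 ± 0.19 (SE) on the log2(TPM + 1) scale (adjusted p = 1.04e-05 with limma), and L was higher in 3 of 3 libraries. hmox1, tubb2b, ccng1 and apcdd1 came next, with differences of 4.18, 3.72, 2.76 and 2.74. In the other direction chrd.1 led with a difference of -8.81, which includes the injected chordin transcript. cdh1 followed at -7.67 ± 0.16 (SE), where S was at 226 TPM and L at 0.0933 TPM (adjusted p = 4.45e-06 with limma). krt70, smad4.1 and pdgfa had differences of -6.60, -4.98 and -3.12, with S higher in every library for each.

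Of the 19 border pairs tested, L was higher in 9 and S in 5 by the same test, beside 42.1% and 33.5% of all pairs. msx1 favoured L by 1.59 ± 0.16 (SE, adjusted p = 0.000363 with limma) and gbx2.1 by 1.21 ± 0.16 (SE). pax3 favoured L by 0.51 ± 0.15 (SE, adjusted p = 0.023 with limma), a call that was lost when replicate 2 or replicate 3 was left out. zic1, dlx6 and prdm1 favoured S, with differences of -1.37, -1.70 and -1.75. For tfap2a the difference of -0.29 ± 0.20 (SE) did not pass the test (adjusted p = 0.243 with limma). sox3 favoured S by a difference of -1.72, while pou5f3.2 favoured L by 1.92. How reads shared by near-identical homeologs were divided was set by the estimation and was not tested here.

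**Figure D5:**
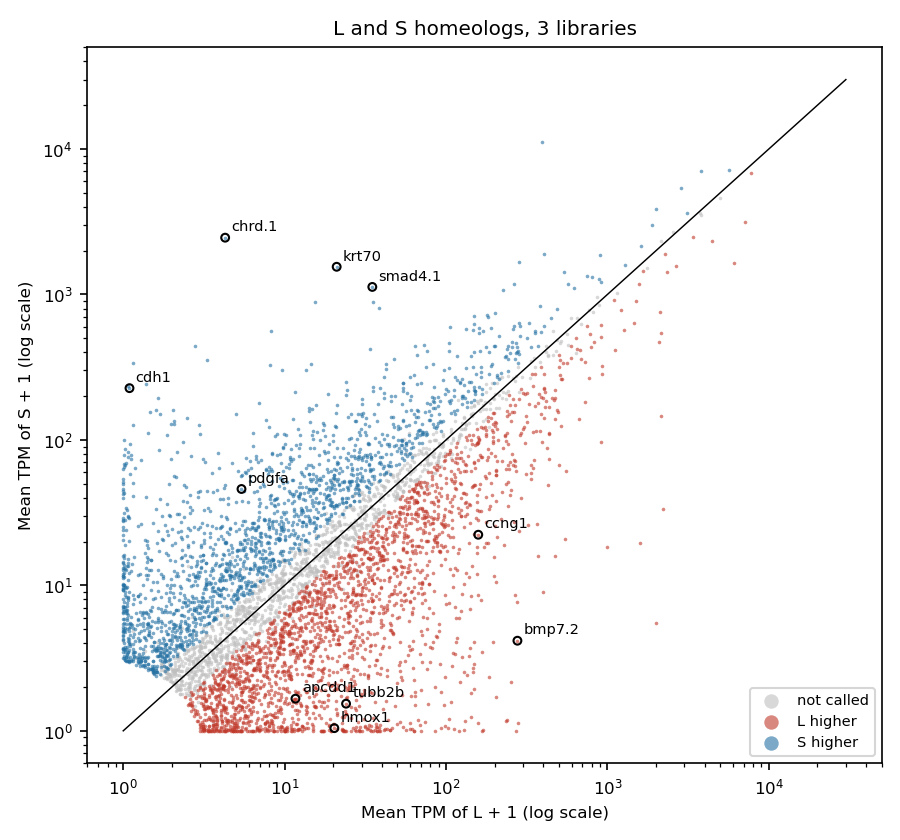
Mean TPM + 1 of the L (horizontal axis, log scale) and S (vertical axis, log scale) homeolog of 5535 pairs over the 3 NPB libraries, coloured by limma's call, with the diagonal marking equal levels and the 5 named pairs most in favour of each homeolog circled. cdh1 and chrd.1 lie far above the diagonal and bmp7.2 (276 and 3.16 TPM) far below it.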

How the data were processed

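RNA from animal pole explants at stage 11.5 was made into directional libraries and sequenced by the authors, who trimmed the reads with fastp. Alignment was with STAR to version 9.2 of the Xenopus laevis genome, and the count table that the authors deposited holds whole reads per gene as HTSeq gave them. The authors' deposited TPM values came from RSEM and sum to 1000000 in each library. Annotation release, tool versions and the strand setting of the counting were not given in the sources used here, so reads of overlapping or antisense genes may not be separated. The 6 stage 9 libraries and the authors' table of their own fold changes and p-values between stage 9 groups were not used here. The 2 tables used held 0 columns of unmapped samples.

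Both tables list 51061 rows. A name is carried by more than 1 row for 482 names (2261 rows), and rows were kept apart. Of all rows, 26635 had a name found in RefSeq v10.1, a later assembly, so no coordinates or sequences are given.

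No filter was applied to TPM other than those stated: 1 TPM in every library for expression, a mean of 10 TPM for spread, and a summed mean of 2 TPM for homeologs. The pseudocount was 1. Homeolog differences were fitted with limma 3.58.1 (intercept only, trend on mean level). The spread of counts was tested with a Poisson chi-square on TMM-scaled totals (edgeR 4.0.16, R 4.3.3), and other values used Python 3.11.15. The test procedures were checked on simulated data with 200 changed genes or pairs. Floors cover counting error only, since no molecular identifiers were used. The limma p-values rest on 3 libraries of 1 group. Replicates 2 and 3 differed by more than counting error, so that each library was counted once. The Poisson p-values rest on the reads of each locus and not on the spread among replicates. With at least 1 count 55.4% of loci were called by that test, and with at least 100 counts 87.7%. Alternatives were other thresholds, pseudocounts, filters and scalings, CPM from the counts in place of TPM, and each library left out in turn.

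Named were the 20 most abundant rows, transcription factors and signalling genes, the border genes, the highest and the near-absent members of the other lists (the near-absent in part), the 15 most uneven loci, the 5 most unequal named pairs in each direction, and the injected genes. Other members, and the genes of the 4 added lists, were named after their values were seen. The members and lists were chosen with earlier results of these data known. Some members of the lists are not reported here by name, and stay in the counts and sums.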

Additional observations from a re-analysis of the deposited data

How the results depend on the processing

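No paired analysis was possible because the 3 libraries form 1 group and each homeolog ratio lies within a library, so there is nothing for a replicate block to pair. The number of expressed loci was 10397 at 5 TPM against 16548 at 1 TPM, by construction, and between 16896 and 17664 when a library was left out. The number of loci varying 2-fold was 3612 with a least mean of 1 TPM, 311 with 50 TPM, 3560 at 1.5-fold and 410 at 3-fold, and between 323 (without replicate 1) and 900 (without replicate 2) with 1 library left out. Loci beyond counting error numbered between 12760 (without replicate 1) and 17059 with 1 library left out. Summing L and S gave 21 of 22 border names expressed (gbx2.1 and gbx2.2 counted apart), in place of 39 of 44 loci, and leaving out a library gave between 39 and 41 loci. The homeolog counts stayed within 1.5 times under every alternative run, with between 3557 and 4172 pairs called when a library was left out. The L over S difference of tfap2c, which was not called, was 0.23 on log2 CPM in place of -0.57, and the cause was not tested. Of the 20 leading rows 12 stayed among the leading 20 by CPM, which has no length correction. The alternatives chosen after seeing the data, a minimum of 10 counts for the expressed, varying and homeolog counts, gave 15836, 1312 and 3773. Levels under 1 TPM rest on few reads, and 66 loci with a mean of 10 TPM or more had fewer than 10 counts.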
